A study of Mus musculus with 2 samples.

Results

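The 5 muscarinic acetylcholine receptor genes, Chrm1 to Chrm5, were examined for peaks of H3K9me2, dimethylated lysine 9 of histone H3, in embryonic mouse cortex. They are 5 of 21523 protein-coding genes in the RefSeq gene table used, which is on GRCm38.p6, the NCBI name of mm10. A peak was assigned to a gene when it overlapped the gene body, extended by 2 kb on both sides, by at least 1 bp, and peaks within 500 kb of the body were taken as context. The data were 1 library from TBC1D3-transgenic cortex and 1 library from wild-type cortex, both of the C57BL/6 strain at embryonic day 15.5 and both precipitated with an antibody to H3K9me2. TBC1D3 is a hominoid gene that mice lack, and the series title pairs its product with G9a, an enzyme that writes H3K9me2. The promoter that drives the transgene, and whether embryos were pooled, are not given in the sources used here. The family was chosen by the number of transgenic peaks listed in Chrm3, so the counts below are a description. With 1 library per genotype no test between genotypes was possible, and every interval covers counting error only.

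Muscarinic receptors are G-protein-coupled receptors for acetylcholine, the transmitter that basal forebrain neurons release onto the cortex. The products of Chrm1, Chrm3 and Chrm5 act through Gq, which activates phospholipase C, releases calcium from internal stores and closes the M-type potassium channels named after these receptors. The products of Chrm2 and Chrm4 act through Gi and Go, which inhibit adenylyl cyclase and open inwardly rectifying potassium channels. H3K9me2 is a repressive mark that is usually spread over broad domains of silent chromatin, often between genes and over long, inactive ones.

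The transgenic list held 6253 peaks from 20697113 ChIP tags, and the wild-type list held 743 peaks from 26735120. Both lists consisted of small peaks, with a median width of 115 bp in the transgenic and 57 bp in the wild-type list and a median of 6 fragments in each. Peaks with a q at or under 0.05 numbered 0 in both lists. The authors extended fragments to 111 bp in the transgenic call and to 57 bp in the wild-type call, so genotype and call setting cannot be told apart. Fold, p and q below are the authors' values per peak. They describe peaks within a list.

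In the transgenic library 2 of the 5 muscarinic genes held a peak, Chrm3 with 6 and Chrm2 with 2, and in the wild-type library 0 of the 5 did. That difference was not seen at equal list length, where with only the 743 strongest transgenic peaks by p the number of genes with a peak was 0 in both libraries. The shortened list ends at a −log10 p of 5.88, above the 5.63 of the strongest Chrm3 peak. In the wild-type list, of the same length, the chromosome means give 0.232 peaks in these genes. A count of 0 in both therefore cannot show whether the libraries differ. Among all coding genes 5.69% held a peak in the transgenic list and 0.911% in the wild-type list. Chrm1, Chrm4 and Chrm5 held 0 peaks in both. The transgenic total of 8 peaks (exact Poisson 95% interval 3.45 to 15.8) compares with 2.12 at the mean peak density of the genes' chromosomes. The wild-type total of 0 (interval 0 to 3.69) compares with 0.232, so a lack of wild-type peaks was not detectable in a list of this length. Without Chrm3 the transgenic total was 2 (interval 0.242 to 7.22) against 0.602.

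**Figure D1:**
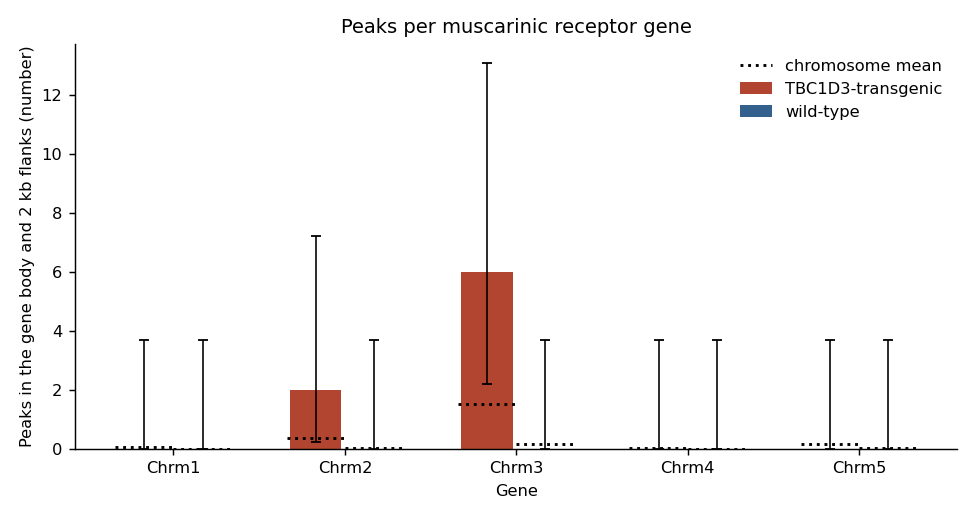
Number of H3K9me2 peaks in each muscarinic gene body with 2 kb flanks, in the TBC1D3-transgenic library (red) and the wild-type library (blue, 0 for every gene), 1 library each. Bars are counts, error bars are exact Poisson 95% intervals and dotted lines are the count that the mean density of the chromosome gives, 1.52 in Chrm3 beside 6 transgenic peaks and 0.368 in Chrm2 beside 2; the family was chosen for the Chrm3 count, so its height is a description.

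None of the peaks lay at an annotated start of these genes. RefSeq promoter sequences of GRCm38.p6, from 250 bases before to 50 bases after the start, were matched for 4 of the 5 genes. The 3 shown are those of Chrm3 and Chrm2, the genes that held peaks, and of Chrm4, which held 0. They run 5′ to 3′ on the strand of the gene, with CpG dinucleotides in capitals, at chr13:10360754-10361053 (minus strand), chr6:36387834-36388133 (plus strand) and chr2:91921939-91922238 (plus strand).
Chrm3: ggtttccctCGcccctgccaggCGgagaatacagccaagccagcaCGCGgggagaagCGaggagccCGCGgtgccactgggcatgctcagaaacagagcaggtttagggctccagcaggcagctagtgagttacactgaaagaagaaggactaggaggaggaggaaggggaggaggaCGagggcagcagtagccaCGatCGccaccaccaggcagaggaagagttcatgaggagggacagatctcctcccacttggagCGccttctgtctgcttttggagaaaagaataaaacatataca
Chrm2: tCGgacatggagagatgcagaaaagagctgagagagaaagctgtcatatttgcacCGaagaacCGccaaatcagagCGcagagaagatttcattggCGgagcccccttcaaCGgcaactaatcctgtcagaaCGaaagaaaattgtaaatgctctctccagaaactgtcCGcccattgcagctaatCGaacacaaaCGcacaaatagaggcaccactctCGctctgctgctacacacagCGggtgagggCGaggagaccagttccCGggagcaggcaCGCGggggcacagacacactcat
Chrm4: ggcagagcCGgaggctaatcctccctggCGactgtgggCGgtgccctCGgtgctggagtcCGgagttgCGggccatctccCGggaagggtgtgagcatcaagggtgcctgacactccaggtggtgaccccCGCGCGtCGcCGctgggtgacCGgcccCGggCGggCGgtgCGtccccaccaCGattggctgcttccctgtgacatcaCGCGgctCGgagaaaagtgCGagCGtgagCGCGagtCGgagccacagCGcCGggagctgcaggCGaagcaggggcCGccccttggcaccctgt

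The Chrm3 window held 11 CpG, the Chrm2 window 16 and the Chrm4 window 30, where the median of 32851 promoter windows was 7. All 3 thus carried more CpG than the median window. The Chrm5 window, at an annotated start inside the gene body, held 3. The nearest transgenic peak lay 89.4 kb from the Chrm3 window and 19.9 kb from the Chrm2 window. For Chrm4 and Chrm5 these distances were 1247 kb and 151 kb. Peaks in such windows were rare in general, at 19 of 32851 in the transgenic and 2 in the wild-type list.

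Chrm3 encodes the M3 receptor, best known for contraction of smooth muscle and secretion from glands and also present in brain. It is a long gene of 486 kb on the minus strand of chromosome 13, from 9875486 to 10361062. Its 6 transgenic peaks (interval 2.20 to 13.1) compare with 1.52 at the mean density of chromosome 13, a ratio of 3.94. That count chose the family, so the ratio supports nothing further. With peaks of a −log10 p of 5 or more the ratio was 2.0, from 1 peak, and at a fold of at least 5 or in the transgenic list cut to 743 peaks it was 0. Its 0 wild-type peaks (0 to 3.69) compare with 0.171.

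Counted from the 5′ end of the Chrm3 body, the first peak had its summit at 89.8 kb and was the strongest in the gene. It spanned 10271171 to 10271312 on chromosome 13 and rested on 8 fragments, with a fold of 4.29 and a q of 0.0873. The second peak, at 138 kb, was the weakest, with 5 fragments and a fold of 3.02. A gap of 163 kb without peaks followed, the longest inside the gene. The peak after this gap, at 302 kb, had 6 fragments and a fold of 3.75.

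The next pair of Chrm3 peaks stood close together, at 378 kb and 381 kb, with 3.18 kb between them. They had 6 and 5 fragments and folds of 3.52 and 3.12. The last peak, at 449 kb and spanning 9912114 to 9912224, had 7 fragments and a fold of 3.46. Peaks were thus spread along most of the gene, 2 in the 5′ and 4 in the 3′ part of its span when it is divided at the midpoint. Together they covered 735 bp, or 0.151% of the body.

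The Chrm3 peaks were ordinary members of the transgenic list. Their median fold was 3.49, against 3.62 over the list, and their median of 6 fragments was that of the list. By p the strongest ranked 873 of 6253 and the weakest 5389. A −log10 p of 5 or more was listed for 1 of the 6, against 32.6% of the list. The local background derived from pileup and fold was 0.866 to 1.31 fragments at these peaks, where the genome-wide background of the call was 0.841. The 5 to 8 fragments of each Chrm3 peak thus stood over a background of about 1.

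**Figure D2:**
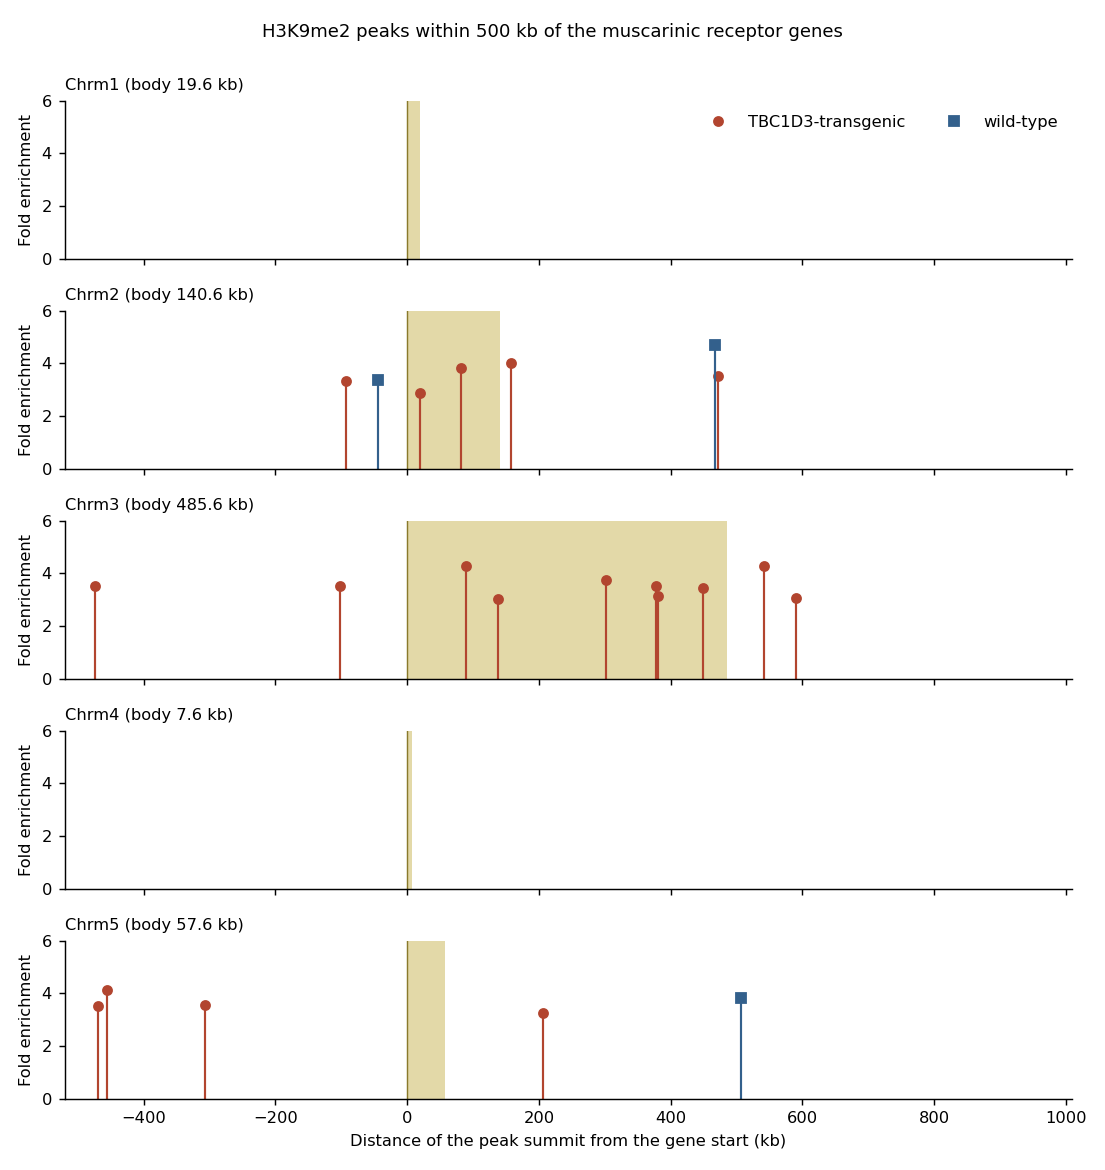
Peaks within 500 kb of each muscarinic gene by distance of the summit from the 5′ end of the gene body (kb; for Chrm1, whose strand was not matched, from its lower coordinate), with the authors' fold enrichment as height, transgenic in red and wild-type in blue. Shading marks the gene body: Chrm3 holds 6 and Chrm2 holds 2 transgenic peaks, and the windows of Chrm1 and Chrm4 are empty.

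Chrm2 encodes the M2 receptor, which slows the heart and acts in brain as an autoreceptor on cholinergic terminals. Its body of 141 kb lies on the plus strand of chromosome 6, from 36387991 to 36528638. It held 2 transgenic peaks (interval 0.242 to 7.22), against 0.368 at the mean density of chromosome 6, and 0 wild-type peaks, against 0.0316. The first peak, 20.1 kb from the 5′ end, spanned 36408021 to 36408131 and had 5 fragments, a fold of 2.86 and a q of 0.374, the highest q in the list. The second, at 81.8 kb, spanned 36469692 to 36469820 and had 7 fragments and a fold of 3.84. A further transgenic peak lay 16.3 kb beyond the 3′ end, outside the extended body, with 7 fragments and a fold of 4.03. The ratio of the 2 peaks inside to the chromosome mean was 5.43 (interval 0.658 to 19.6).

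The remaining receptor genes were shorter than Chrm2 and held 0 peaks in both libraries. Chrm1 encodes the M1 receptor, the main muscarinic receptor of cortical and hippocampal pyramidal neurons, in 19.6 kb of chromosome 19 from 8664005 to 8683606. Its nearest peak was 765 kb away in the transgenic and 2294 kb away in the wild-type list. Chrm4 encodes the M4 receptor, prominent in striatum, in 7.65 kb of chromosome 2 from 91922189 to 91929835. Its nearest peaks were 1239 kb and 3557 kb away in the transgenic and wild-type lists. Chrm5, for the M5 receptor of midbrain dopamine neurons, spans 57.6 kb of chromosome 2 from 112478733 to 112536361, and its nearest peaks were 149 kb and 449 kb away in the transgenic and wild-type lists. The mean transgenic density gives 0.0579 peaks in Chrm1, 0.0279 in Chrm4 and 0.148 in Chrm5, so 0 peaks in these genes does not set them apart.

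Longer genes held a peak more often, and Chrm3 makes up 68.3% of the summed span of the family. Of the 89 other coding genes with a span within 10% of that of Chrm3, 62.9% held a transgenic and 20.2% a wild-type peak. They held 1.27 transgenic peaks on average, with a median of 1. One of the 89 held 6 or more, namely Slc24a3, a sodium/calcium exchanger gene with 8 transgenic and 0 wild-type peaks where the mean of its chromosome gives 1.15 transgenic. Over all coding genes 26 held 6 or more transgenic peaks, or 0.121%, and no gene did so in the wild type.

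**Figure D3:**
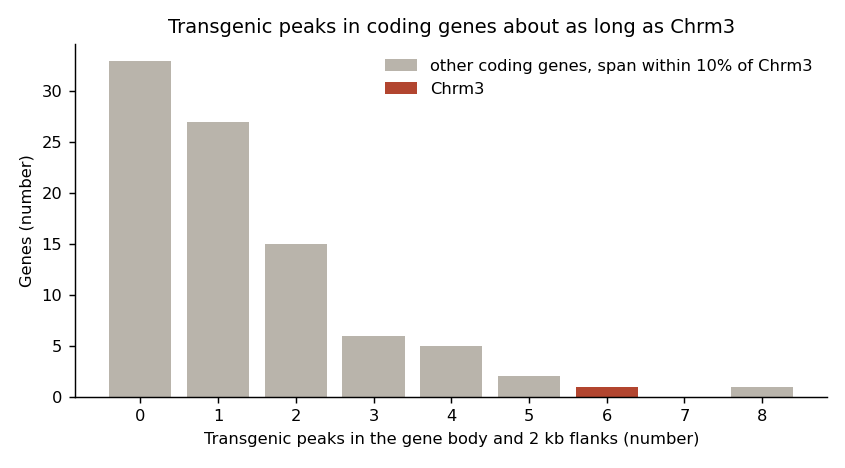
Distribution of transgenic peaks per gene (x axis, number of peaks in the body and 2 kb flanks; y axis, number of genes) over the 89 other coding genes with a span within 10% of that of Chrm3 (grey) and Chrm3 itself (red). Of the 89 genes, 33 held 0 peaks and 27 held 1, Chrm3 held 6 and the highest gene held 8.

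For the other members the same comparison gave lower shares. Among 411 coding genes about as long as Chrm2, 15.3% held a transgenic peak and 14 held 2 or more, as Chrm2 did. The wild-type share was 1.46%. Of genes about as long as Chrm5, Chrm1 and Chrm4, 5.47%, 2.13% and 1.27% held a transgenic peak and 0.621%, 0.0853% and 0.115% a wild-type peak.

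Chrm3 and Chrm2 also lay in gene-poor surroundings, and each had 2 other coding genes within 500 kb. Chrm4 had 18, Chrm5 had 19 and Chrm1 had 34. The median coding gene had 16, and those with a transgenic peak had a median of 8, against 17 for those without one. The receptor genes with peaks were thus both the longest and the most isolated of the family. With 5 genes, length and isolation cannot be told apart.

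Within 500 kb of the 5 genes there were 19 transgenic peaks (interval 11.4 to 29.7) and 3 wild-type peaks (0.619 to 8.77), the peaks inside the genes included. The chromosome means give 15.0 and 1.71. The transgenic peaks were divided as 10 around Chrm3, 5 around Chrm2, 4 around Chrm5 and 0 around both Chrm1 and Chrm4. The wild-type peaks were divided as 2 around Chrm2, 1 around Chrm5 and 0 around the other 3. The Chrm3 window held 6.73 transgenic peaks per Mb (3.23 to 12.4), against 3.11 over chromosome 13. Outside the gene body and flanks, the Chrm3 window held 4 peaks, or 4.02 per Mb (1.09 to 10.3). The body and flanks held 12.3 per Mb (4.50 to 26.7), and these intervals overlap. The count in the body chose the family, so these densities are a description and their difference was not tested.

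The context peaks of Chrm3 lay outside coding genes. On the 3′ side a peak 55.9 kb from the body had 8 fragments and a fold of 4.27, and a peak 105 kb away, with 5 fragments, stood 4.59 kb from Zmynd11, a chromatin reader gene. On the 5′ side peaks stood 101 kb and 475 kb away, each with 6 fragments and a fold of 3.52. The coding neighbours Zmynd11 and Dip2c held 0 peaks in both lists. Beyond the window the next transgenic peak was 823 kb from Chrm3 and the nearest wild-type peak 602 kb.

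Chrm2 and Chrm4 sit in related surroundings. Chrm2 is followed by Ptn (pleiotrophin) and Dgki (diacylglycerol kinase iota), and Chrm4 by the paralogues of these genes, Mdk (midkine) and Dgkz (diacylglycerol kinase zeta). The Chrm2 copy is long, with 95.3 kb for Ptn and 464 kb for Dgki, and the Chrm4 copy is compact, with 2.49 kb for Mdk and 43.6 kb for Dgkz. Dgki, whose product removes the diacylglycerol that phospholipase C makes, held 1 peak in each library. Ptn, Mdk and Dgkz held 0 in both. The whole window of Chrm2 held 5 transgenic and 2 wild-type peaks, and that of Chrm4 held 0 and 0. The chromosome means give 2.90 transgenic and 0.249 wild-type peaks for the Chrm2 window, and 2.41 and 0.315 for that of Chrm4. The part of neighbour length in these counts was not tested.

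The peaks in Dgki were the closest between the lists near any muscarinic gene. The transgenic peak spanned 36860327 to 36860437 on chromosome 6 and had 6 fragments and a fold of 3.52. The wild-type peak spanned 36855924 to 36855980 and had 8 fragments and a fold of 4.70, and by p it ranked 89 of 743. They were 4.35 kb apart and did not overlap. The other wild-type peak near Chrm2, of 6 fragments, lay 44.1 kb upstream of the gene in the long noncoding RNA gene 9330158H04Rik. Of the 3 wild-type peaks in the windows 1 had a transgenic peak within 10 kb, where 10.1% of the whole wild-type list did.

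Around Chrm5 most transgenic peaks fell in another long gene. Within the window, 3 of 4 lay in Ryr3, a calcium release channel gene of 586 kb that held 4 transgenic peaks over its whole length. The strongest of the 3 had 7 fragments, a fold of 4.14 and a q of 0.0988. Aven, which overlaps Chrm5, held 0 peaks in both lists. The wild-type peak of the window stood 7.96 kb from the olfactory receptor gene Olfr1311. For the Chrm5 window the chromosome means give 2.53 transgenic peaks, beside the 4 found, and 0.331 wild-type peaks, beside 1. The part of the length of Ryr3 in these counts was not tested.

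**Figure D4:**
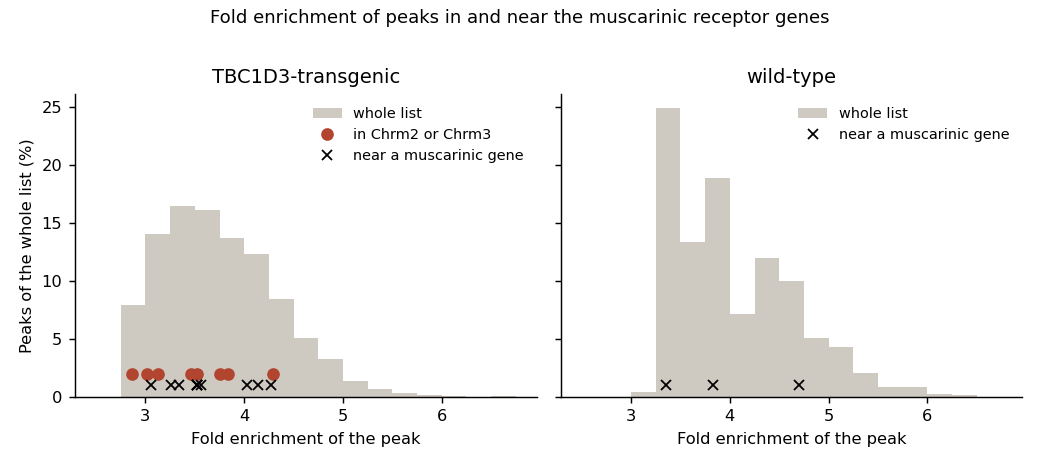
Fold enrichment of peaks inside Chrm2 or Chrm3 (circles) and elsewhere within 500 kb of a muscarinic gene (crosses), over the distribution of the whole list (grey, % of peaks), for the transgenic list (left) and the wild-type list (right). Heights of circles and crosses carry no value; the 19 transgenic peaks lie between folds of 2.86 and 4.29 and the 3 wild-type peaks between 3.35 and 4.70, inside the range of their lists.

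None of the 19 transgenic and none of the 3 wild-type peaks reached a fold of 5, which 2.65% of the transgenic and 8.34% of the wild-type list did. A −log10 p of 5 or more was listed for 4 of the 19 transgenic and 1 of the 3 wild-type peaks. All 8 peaks assigned to the genes lay in the bodies and 0 in the 2 kb flanks, and the nearest peak outside the flanks was the one 16.3 kb from Chrm2. At the 500 kb limit the last transgenic peak inside was 475 kb from Chrm3 and the first outside was 511 kb from Chrm5.

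Other genes of acetylcholine signalling were counted in the same way. Of 60 genes in 5 lists, 13 held a transgenic peak and 3 a wild-type peak, or 21.7% and 5.0%, against 5.69% and 0.911% of all coding genes. The 60 genes had a median span of 34.9 kb, against 17.4 kb for coding genes, and the 13 with a transgenic peak had a median of 338 kb. Their 22 transgenic and 3 wild-type peaks compare with 16.7 and 2.05 at the mean density of their chromosomes.

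Acetylcholine receptors of the nicotinic class held no peaks. Of the 16 nicotinic subunits, which form ligand-gated channels, 0 held a peak in either library, where the chromosome means give 1.07 transgenic and 0.146 wild-type peaks. Of 7 genes for synthesis, transport and breakdown of acetylcholine, Bche (butyrylcholinesterase) held 1 transgenic peak, of fold 4.89, and 0 held a wild-type peak. The chromosome means give 0.770 transgenic and 0.0990 wild-type peaks for these 7 genes.

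Genes of the Gq arm, which transmits signals of the receptors encoded by Chrm1, Chrm3 and Chrm5, were long and often held a peak. Of 16 such genes 9 held a transgenic and 1 a wild-type peak, or 56.2% and 6.25%, against 5.69% and 0.911% of all coding genes. They held 17 transgenic peaks and 1 wild-type peak in all, against 10.1 and 1.22 at the chromosome means. The 16 genes had a median span of 278 kb, and the 9 with a transgenic peak a median of 356 kb. The part of gene length in these shares was not tested. Plcb1, a phospholipase C of 689 kb, held 4 transgenic peaks against 1.66. Kcnq5, an M-type potassium channel subunit of 564 kb, held 3 against 1.53. Prkca (protein kinase C alpha) held 2, one of fold 4.80. Prkcb, a further protein kinase C, held 2 transgenic peaks and 1 wild-type peak, of fold 4.91.

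Of 12 genes of the Gi and Go arm, which serves the products of Chrm2 and Chrm4, 2 held a transgenic peak. These were Adcy8, an adenylyl cyclase, with 2 and Kcnj6, an inward rectifier subunit, with 1, and these 3 peaks compare with 3.49 at the chromosome means. The subunit gene Kcnj3, named here after its values were seen, held 1 wild-type and 0 transgenic peaks. Of 9 genes for desensitisation, Grk5, a receptor kinase, held 1 peak in both libraries, and the chromosome means give 1.26 transgenic and 0.150 wild-type peaks for the list. Among 30 receptors for dopamine, serotonin, noradrenaline and histamine 2 held a transgenic peak and 0 a wild-type peak, Htr1f with 2 transgenic peaks and Htr4 with 1. These 3 peaks compare with 3.76 at the chromosome means. That share of 6.67% lies near the 5.69% of all coding genes.

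**Figure D5:**
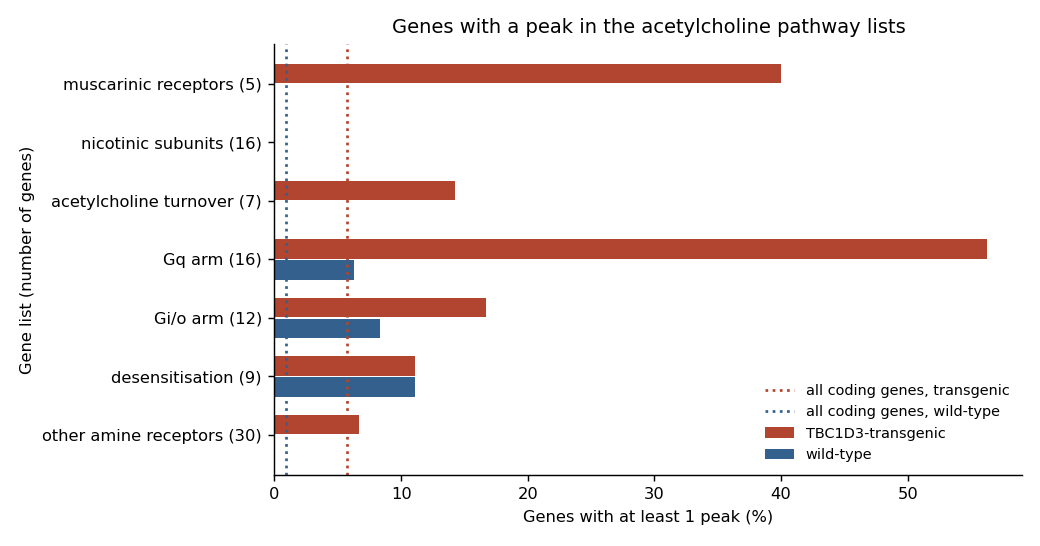
Share of genes with at least 1 peak (x axis, %) in the muscarinic family and 6 lists of related genes (y axis, number of genes in brackets), transgenic in red and wild-type in blue, with dotted lines at 5.69% and 0.911% for all coding genes. The muscarinic receptors stand at 40.0% and 0% and the Gq arm at 56.2% and 6.25%, without allowance for the length of the genes.

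A peak list of a histone mark gives no measure of expression and cannot identify cells, so neither the cortical origin nor the transgene could be checked here. Marker genes were counted for completeness. Of 5 cortical neuron and 5 progenitor markers, 0 held a peak in either library. The chromosome means give 0.845 and 0.171 transgenic peaks for these lists, and 0.0850 and 0.0221 wild-type peaks. A count of 0 thus does not set these markers apart. Of 4 microglia and blood markers 2 held a transgenic and 0 a wild-type peak, where all coding genes give 5.69% and 0.911%. These 2 transgenic peaks compare with 0.523 at the chromosome means, a ratio of 3.83. Of 4 vessel and meninges markers 2 held a transgenic and 1 a wild-type peak, and their 4 transgenic peaks compare with 0.506, a ratio of 7.91. The muscarinic genes gave 3.77, a value that includes the Chrm3 count that chose the family. With 2 and 4 peaks behind the marker ratios, these ratios cannot be ranked. The part of these markers in the muscarinic counts was not tested.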

How the data were processed

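H3K9me2 ChIP sequencing of 1 TBC1D3-transgenic and 1 wild-type cortex library was analysed from the deposited peak lists. Peaks had been called by the authors in each library against its own input with MACS version 2.1.0.20150420, at a p cutoff of 0.001, without a shift model and with broad calling off, per the file headers. The submitters' processing notes name BWA and mm10. The deposited pileup signal counts extended fragments after the larger of ChIP and input was scaled to the smaller, and dividing by the ChIP scale (1 and 0.951 in the transgenic and wild-type lists) gave whole fragments within 0.02 for 100% of peaks. The deposited fold is the ratio of pileup plus 1 to local background plus 1, from which that background was derived. The deposited −log10 p and q are the caller's, and q values are listed although the headers say it would not be calculated. Depth was 20697113 ChIP and 20968853 input tags in the transgenic library, and 26735120 and 25431051 in the wild-type library.

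Peaks were placed on a RefSeq gene table (GRCm38.p6) without exons, so exons, introns and UTRs were not separated. Genes starting under 3 Mb were left out. Expected counts are a length times the peaks per base of the chromosome from 3 Mb to its last gene. That length is the gene body with 2 kb on both sides, or with 500 kb on both sides for the windows. Intervals are exact Poisson, at 95%. The overlap count was tested on simulated data. Python 3.11.15, pandas 2.3.3 and scipy 1.17.1 were used. Named genes were the 5 members, coding genes within 500 kb that hold a peak, pathway genes with a peak in both libraries or among the 3 per list with most transgenic peaks, and genes about as long as Chrm3 with at least as many. The further neighbours Ptn, Mdk, Dgkz, Aven, Zmynd11, Dip2c and Olfr1311 were named after their values were seen. A neighbouring gene with a peak is not reported here. The other amine receptors were kept apart from the 60 pathway genes. Members and lists were chosen with earlier results of these data known. Alternatives were stricter limits, merging, a shortened transgenic list, and other flanks, windows and distances. No genome sequence was used, so sequence under the peaks was not analysed here.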

Additional observations from a re-analysis of the deposited data

How the results depend on the processing

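No paired analysis was possible because each genotype has 1 library, and no library could be left out. Of 79 alternative values for 12 results, 52 stayed within the limits set for them and 27 did not. Some of the 52 could not have moved, so this tally does not measure stability. The wild-type list stayed whole when the transgenic list was cut, and a wild-type count of 0 could not change under stricter limits. Merging peaks within 1 kb and extensions of 0, 5 or 10 kb moved no result beyond those limits. The counts in the muscarinic genes could not change under these settings, so this says nothing about how stable they are. The closest peaks in these genes were 3.18 kb apart, and the nearest peak outside the bodies was 16.3 kb away. With peaks of a −log10 p of 5 or more, the transgenic values were 1 peak in the muscarinic genes, 1 gene with a peak, 1 peak in Chrm3, 4 peaks within 500 kb and 3 pathway genes, and the wild-type values were 1 peak within 500 kb and 1 pathway gene. The ratio of Chrm3 to its chromosome mean was then 2.0. At a fold of at least 5 each of these counts and the Chrm3 ratio was 0 in the transgenic list, and the wild-type counts within 500 kb and in the pathway were 0. With the transgenic list cut to the 743 peaks of lowest p, it held 0 peaks in the muscarinic genes, 0 genes with a peak, 0 peaks in Chrm3 (a ratio of 0), 0 within 500 kb and 3 pathway genes. These settings shorten the lists. Windows of 100 kb held 11 transgenic and 1 wild-type peaks, windows of 250 kb held 14 and 1, and windows of 1000 kb held 26 and 6. Of the wild-type peaks near the genes, 0 had a transgenic peak within 1 kb and 2 within 100 kb. Peaks of 5 to 8 fragments limit what these lists can show.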
